A study of Mus musculus with 16 samples.

Results

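The matrix metalloproteinases (MMPs), the ADAMTS enzymes and the tissue inhibitors of metalloproteinases (TIMPs) were followed in mouse liver under ethanol feeding and treatment with matrix-bound nanovesicles (MBVs). Members were taken by gene symbol, as every symbol of the deposited tables that begins with Mmp or Timp and a digit or with Adamts. This gave 51 of 24411 symbols, made up of 23 MMPs, 4 TIMPs, 19 ADAMTS enzymes and 5 ADAMTS-like proteins. Of these, 30 had enough counts to be tested (12 MMPs, 2 TIMPs, 12 ADAMTS enzymes and 4 ADAMTS-like proteins).

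MMPs and ADAMTS enzymes are zinc endopeptidases that cut collagens, proteoglycans and other matrix proteins at the cell surface and in the space between cells. Most are made as inactive precursors, are activated by furin-like convertases, plasmin or other MMPs, and are held in check by TIMPs. In the liver, stellate cells, macrophages, endothelial cells and hepatocytes all contribute to them, and matrix turnover by these enzymes takes part in fibrosis and in its resolution.

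The study sequenced polyadenylated RNA of whole liver from mice in 4 groups, with 4 libraries in each. The group PF was pair-fed and received vehicle, and the group EtOH received vehicle on a diet with ethanol that followed the chronic and binge regimen of the NIAAA. The group EtOH+MBV had the same ethanol diet with MBVs, and the group PF+MBV was pair-fed with MBVs. MBVs are vesicles embedded in the extracellular matrix. The labels name no strain, sex or age and no source, dose or route of the MBVs, and they number the libraries of a group without saying that each came from its own animal, so a p-value measures the spread between these libraries, which may be technical.

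The libraries held 15271344 to 20493181 counts in genes. On a principal component analysis of all tested genes, EtOH 1 (the EtOH library numbered 1) stood apart on the second component and EtOH+MBV 1 lay away from the other 3 EtOH+MBV libraries on the first. EtOH 1 also had the highest macrophage markers: the summed level of 9 markers of recruited monocytes and macrophages was 209 CPM there (CPM, counts scaled to one common library total) and 70.9 to 119 CPM in the other 15 libraries. In bulk liver, fewer cells of a type and less RNA per cell cannot be told apart. None of the listed markers of any cell type was at 0 in all libraries, and hepatocyte markers summed to 82861 CPM or more in every library. Other cell type markers moved with ethanol beside the members. Markers of sinusoidal endothelium summed to 526 to 621 CPM in PF and 403 to 483 CPM in EtOH, with 6 of 9 called lower and 2 higher. Of 10 stellate cell markers 4 were called higher and 2 lower (sums of 257 to 264 against 219 to 276 CPM). T, NK and B cell markers summed to 2.79 to 3.67 CPM in PF and 0.629 to 1.54 CPM in EtOH. Only 1 of these 8 markers, Cd3e, had enough counts to be tested. Cd3e was not called (log2 -0.82 ± 0.66, adjusted p = 0.341). The part of any of these cell types in the members' changes was not tested.

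Levels of different members were compared per kilobase of exon. Over the 16 libraries Mmp19 had the highest mean, at 13.3 ± 2.07 CPM per kb (SD), 23.9% of the sum of all members, followed by the membrane-bound collagenase Mmp14 at 7.16 ± 2.41 CPM per kb. Next came the matrix-bound inhibitor Timp3 at 6.76 ± 1.90, the proteoglycanase Adamts1 at 6.14 ± 4.27, the membrane-bound Mmp15 at 5.50 ± 2.38 and the inhibitor Timp2 at 3.68 ± 0.395 CPM per kb. The spread of neighbours in this order overlapped from Mmp14 to Timp2. These means pool groups that differed, and below Mmp19, first in each group, the order changed: Adamts1 was at 2.35 ± 0.778 CPM per kb in PF (n = 4), the lowest of the 6, and at 11.7 ± 2.23 in EtOH, next to Mmp19. Mmp15 went the other way, from 6.62 ± 2.27 in PF to 4.12 ± 1.11 CPM per kb in EtOH. Timp2 was the least variable of the 6, at 3.64 to 3.71 CPM per kb in all groups.

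**Figure D1:**
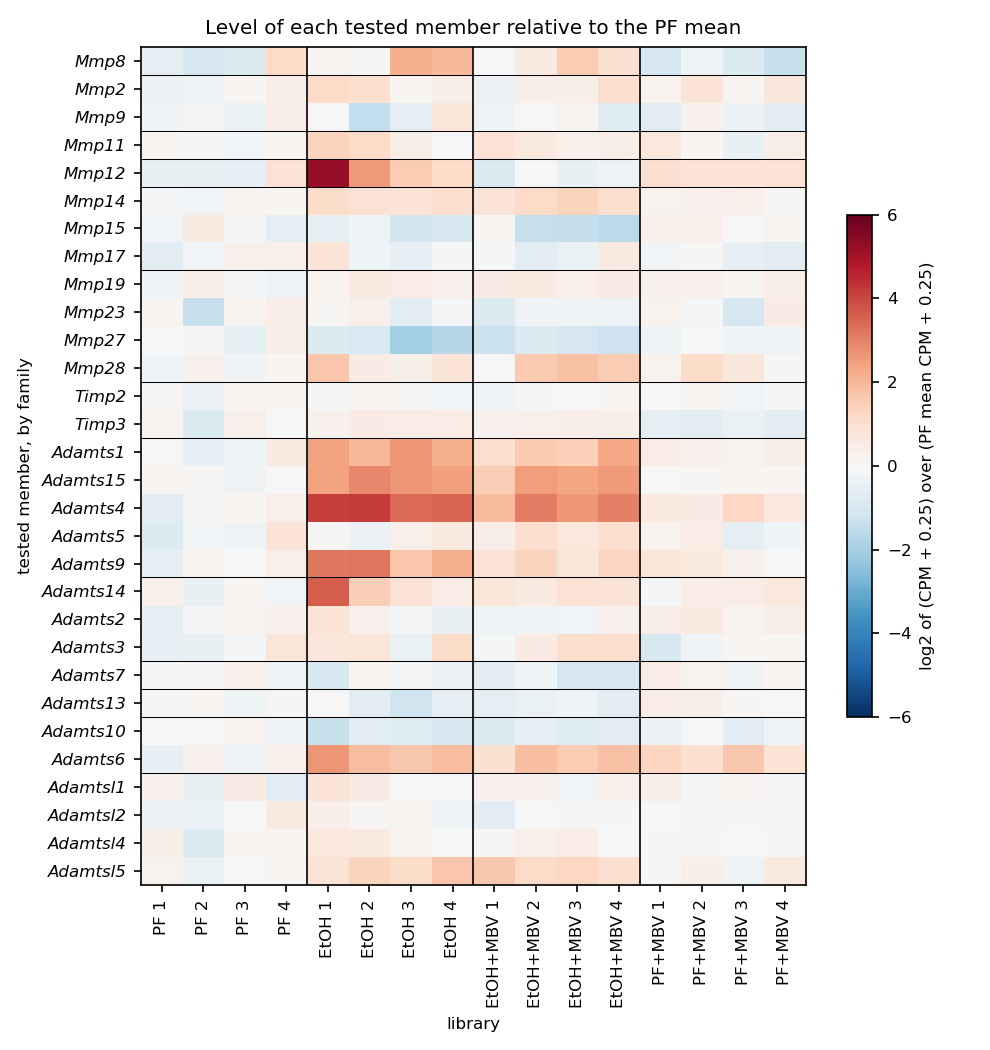
Level of the 30 tested members in each of the 16 libraries (columns, grouped by treatment), as log2 of CPM plus 0.25 relative to the PF mean plus 0.25, with rows ordered by family. Adamts1, Adamts4, Adamts9, Adamts15 and Adamts6 are red in all 4 EtOH libraries, and the darkest cell is Mmp12 in EtOH 1.

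Ethanol feeding alone moved many members, mostly upward. In EtOH against PF, 14 of the 30 tested members passed an adjusted p of 0.05 (edgeR quasi-likelihood test, Benjamini-Hochberg over 12901 genes), 11 of them higher and 3 lower. That is 46.7% of the tested members, against 39.8% of all tested genes, of which 20.4% were higher and 19.5% lower. The median log2 fold change of the tested members was 0.45, and that of all tested genes 0.01. A share called this close to the background says little about the members as a set. The rises were in ADAMTS proteoglycanases, Adamts6, Adamts14, Adamtsl5, Mmp11, Mmp12, Mmp14 and Mmp19, and the falls in Mmp27, Adamts10 and Adamts13.

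The ADAMTS proteoglycanases, which cleave aggrecan, versican and related proteoglycans, had 7 members, of which 5 were tested and 4 rose in EtOH. Their summed level was 13.7 to 24.9 CPM in the PF libraries and 80.3 to 103 CPM in the EtOH libraries. The median log2 fold change of the 5 was 2.86. Adamts5, a main aggrecanase of cartilage, was the tested member without a call, at 0.21 ± 0.36 (log2, SE; adjusted p = 0.679). Adamts8 and Adamts20 had too few counts.

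Adamts4 (chromosome 1: 171250421 to 171260637, GRCm38) stood at 0.122, 0.376, 0.399 and 0.497 CPM in PF 1 to 4 and at 10.5, 10.7, 5.97 and 6.45 CPM in EtOH 1 to 4. The lowest EtOH library was far above the highest PF library. The mean rose 23.6-fold (log2 4.56 ± 0.39, adjusted p = 9.99e-07), from a PF mean of only 6.00 counts per library.

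Adamts1 (chromosome 16: 85793827 to 85803113), the most abundant of the family, was at 12.8, 8.65, 10.3 and 18.1 CPM in the PF libraries and at 67.2, 49.5, 75.9 and 55.4 CPM in the EtOH libraries. The groups did not overlap, and the rise was 4.99-fold (log2 2.32 ± 0.25, adjusted p = 6.9e-06). Adamts15 (chromosome 9: 30899155 to 30922452) was even within each group, at 1.28, 1.25, 0.997 and 1.18 CPM in PF and 7.41, 10.4, 8.86 and 7.61 CPM in EtOH. It rose 7.26-fold (log2 2.86 ± 0.24, adjusted p = 8.32e-07). Adamts9 (chromosome 6: 92772699 to 92943492) was at 1.04, 1.75, 1.65 and 2.05 CPM in PF and at 16.6, 17.3, 5.64 and 8.19 CPM in EtOH. EtOH 1 and EtOH 2 were well above the other pair, yet all 4 were above every PF library, with a 7.35-fold rise (log2 2.88 ± 0.34, adjusted p = 1.48e-05).

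**Figure D2:**
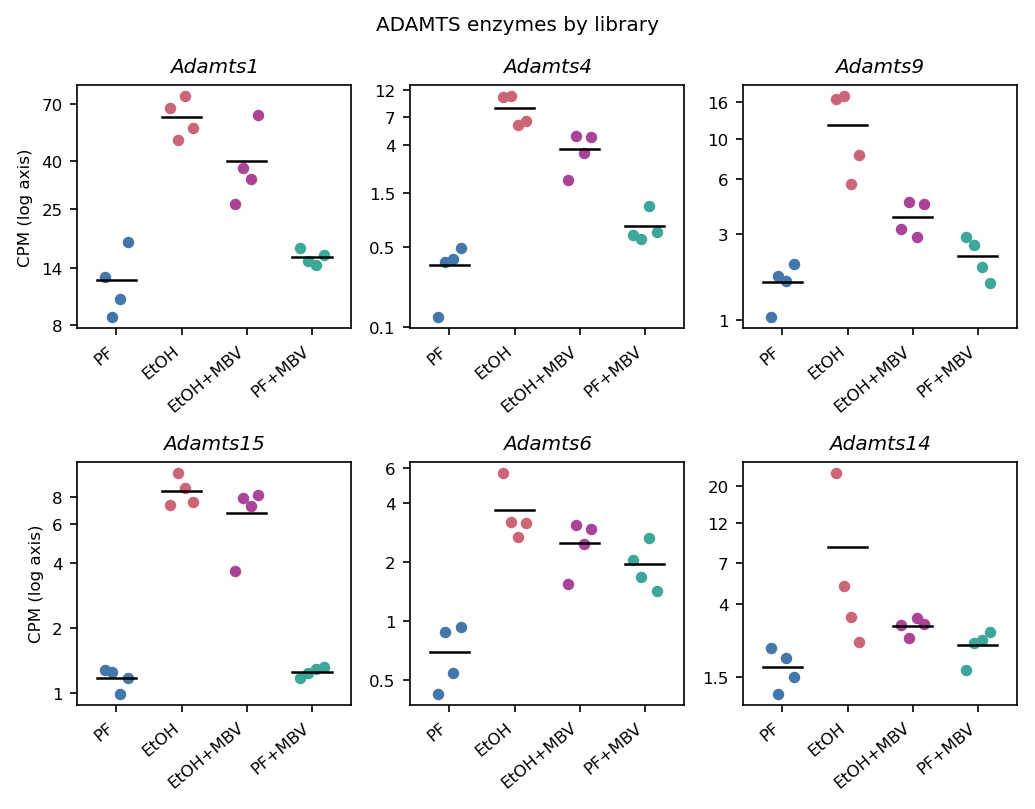
Level of 6 ADAMTS enzymes in CPM (log axis, its range set per gene) in the 4 libraries of each group, with 1 point per library and a bar at the group mean. The EtOH points lie above the PF points for all 6, and for Adamts4 and Adamts9 the EtOH+MBV points lie between EtOH and PF.

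Outside the proteoglycanases, 3 more of the ADAMTS and ADAMTS-like members rose. Adamts6, whose substrates lie among fibrillin microfibrils and cell-surface proteoglycans, was at 0.428, 0.877, 0.548 and 0.932 CPM in PF and at 5.71, 3.20, 2.69 and 3.16 CPM in EtOH. All EtOH libraries were higher than all PF libraries, and the rise was 5.32-fold (log2 2.41 ± 0.34, adjusted p = 6.05e-05). Adamtsl5, a fibrillin-binding protein with no protease domain, was at 0.611, 0.313, 0.499 and 0.559 CPM in PF and at 1.06, 1.63, 1.34 and 2.13 CPM in EtOH, a 3.06-fold rise (log2 1.61 ± 0.33, adjusted p = 0.00133). Its groups did not overlap either.

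Adamts14, which trims the amino-terminal propeptide of fibrillar procollagens, rose mainly through 1 library. It was at 2.20, 1.19, 1.94 and 1.49 CPM in PF and at 23.9, 5.12, 3.36 and 2.39 CPM in EtOH. The fold with all libraries was 5.11 (log2 2.35 ± 0.55, adjusted p = 0.00327). Without EtOH 1 the log2 fold change was 1.08 with an adjusted p of 0.00547, and with limma voom and library weights it was 1.13. The other tested procollagen N-proteinases, Adamts2 and Adamts3, had no call.

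Adamts10 and Adamts13 fell in EtOH. Adamts10, a binding partner of fibrillin, was at 10.6, 10.5, 12.3 and 9.32 CPM in PF and at 4.07, 6.81, 6.24 and 5.35 CPM in EtOH, with no overlap and a fold of 1.91 (log2 -0.93 ± 0.17, adjusted p = 0.000512). Adamts13, the liver-made protease that cleaves von Willebrand factor, was at 5.93, 6.95, 5.18 and 6.59 CPM in PF and at 6.05, 3.78, 2.55 and 4.26 CPM in EtOH. EtOH 1 lay inside the PF range and the other 3 EtOH libraries below it. The log2 fold change was -0.55 ± 0.21, with an adjusted p of 0.0463 that rested on single libraries: leaving out PF 1, PF 2, PF 4, EtOH 2, EtOH 3 or EtOH 4 in turn ended the call (log2 -0.58 to -0.39).

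Among the MMPs, 10 genes lie side by side on chromosome 9 (chr9:7272514-7699585, GRCm38, 427 kb): Mmp13, Mmp12, Mmp1b, Mmp3, Mmp1a, Mmp10, Mmp8, Mmp27, Mmp20 and Mmp7. Genes of this cluster are textbook targets of the AP-1 transcription factors (Fos and Jun family dimers). The promoter letters were therefore read for the AP-1 motif TGANTCA on both strands. The letter N stands for any base, and the motif overlaps no other motif searched. RefSeq promoter windows (GRCm38.p6, 250 bases before to 50 after a start site) matched 36 of the 51 members. The motif was in 8 of the 10 cluster members and in 0 of the 26 matched members outside the cluster. It was in 7.81% of all 32851 windows. The 26 without it include Adamts1, Adamts9, Adamts14, Adamtsl5, Mmp11 and Mmp14, which rose in EtOH. The members without a window were Adamts4, Adamts5, Adamts6, Adamts7, Adamts8, Adamts10, Adamts15, Adamts16, Adamts19, Adamtsl1, Mmp2, Mmp9, Mmp16, Mmp17 and Mmp19.

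The 120 bases before the start site are shown for 5 cluster members. These are Mmp12, Mmp13 and Mmp3, with the motif, and Mmp8 and Mmp27, in which the motif was not found. All run 5′ to 3′ on the plus strand, with the motif match in capitals. They are chr9:7347254-7347373 for Mmp12 (the second of its start sites in the table; the window of the other has no match), chr9:7272394-7272513 for Mmp13, chr9:7445702-7445821 for Mmp3, chr9:7558309-7558428 for Mmp8 and chr9:7571276-7571395 for Mmp27.
Mmp12: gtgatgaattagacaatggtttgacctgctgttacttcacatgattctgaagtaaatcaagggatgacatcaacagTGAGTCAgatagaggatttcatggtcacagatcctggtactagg
Mmp13: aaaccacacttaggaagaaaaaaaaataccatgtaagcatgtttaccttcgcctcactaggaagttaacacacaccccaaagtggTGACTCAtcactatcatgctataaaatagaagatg
Mmp3: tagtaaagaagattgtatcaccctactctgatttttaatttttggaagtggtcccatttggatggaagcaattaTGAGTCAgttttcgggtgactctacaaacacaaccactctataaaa
Mmp8: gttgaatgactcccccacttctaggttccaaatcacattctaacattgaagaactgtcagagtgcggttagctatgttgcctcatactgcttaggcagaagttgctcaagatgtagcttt
Mmp27: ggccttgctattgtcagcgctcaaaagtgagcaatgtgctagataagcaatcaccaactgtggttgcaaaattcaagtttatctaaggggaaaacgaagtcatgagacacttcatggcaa

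The first base of the match lay at -44 from the start site in Mmp12, -35 in Mmp13 and -46 in Mmp3. It was at -63 in Mmp10 and Mmp7, -73 in Mmp1a, -93 in Mmp1b and -95 in Mmp20. A match describes the letters only, and most genes with one were hardly detected here: of the 10 cluster members only Mmp12, Mmp8 and Mmp27 had enough counts to be tested. The part of AP-1 in any change of the members was not tested.

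Mmp12, macrophage elastase, was the MMP with the largest rise in EtOH. It was at 0.367, 0.376, 0.349 and 1.30 CPM in PF and at 31.4, 4.71, 2.22 and 1.68 CPM in EtOH. All 4 EtOH libraries were above all PF libraries, but EtOH 1 was far above the next. The rise was 16.9-fold (log2 4.08 ± 0.81, adjusted p = 0.00102). Its size depended on 2 libraries: the log2 fold change was 2.27 without EtOH 1 (adjusted p = 0.00105) and 4.76 without PF 4, and it was 2.79 with limma voom.

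Macrophage markers moved with Mmp12 in EtOH 1. The sum of the 9 markers of recruited monocytes and macrophages was 87.2 to 119 CPM in PF, 209 CPM in EtOH 1 and between 78.6 and 105 CPM in EtOH 2 to 4. Of the 8 tested, 4 rose in EtOH (Itgam, Cd68, Gpnmb and Cd9) and Ccr2 fell. Without EtOH 1 the calls of Itgam (log2 0.78) and Cd68 (0.29) ended and 2 rises were left, Gpnmb (2.39, from 4.59 with it) and Cd9 (1.31). Ccr2 stayed lower (-1.90) in that setting, and Lyz2 was newly called lower (-0.48, adjusted p = 0.0242). The Itgam call also ended without PF 1 or PF 2 and the Cd68 call without PF 1, PF 3 or PF 4 (0.74 to 0.99 and 0.29 to 0.67 over all leave-outs that ended them). There were also 2 rises without PF 1, with limma voom and with the 8 libraries fitted alone. Gpnmb, a gene of lipid-laden macrophages, reached 15.5 CPM in EtOH 1 and only 0.774 to 1.22 CPM in EtOH 2 to 4. Markers of Kupffer cells, the resident macrophages of the liver, summed to 268 to 362 CPM in PF, 516 CPM in EtOH 1 and 161 to 228 CPM in EtOH 2 to 4, so that EtOH 1 was above every PF library and the other 3 below. Of 8 such markers 1 was called higher and 1 lower, and 1 higher and 6 lower without EtOH 1. The part of these cells in the Mmp12 rise was not tested.

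Mmp27 and Mmp8, further along the cluster, were at low levels. Mmp27 was at 0.794, 0.814, 0.449 and 1.06 CPM in PF and at 0.339, 0.291, 0 and 0.0645 CPM in EtOH, where 3 counts correspond to 0.145 to 0.201 CPM. Its groups did not overlap, and it fell by 2.02 ± 0.52 on the log2 scale (adjusted p = 0.00609; -2.66 with limma voom). Mmp8, the collagenase of neutrophils, was at 0.183, 0.0626, 0.0997 and 1.18 CPM in PF and at 0.436, 0.407, 2.55 and 2.19 CPM in EtOH. PF 4 lay within the EtOH range, and the difference was not called (log2 1.86 ± 0.81, adjusted p = 0.0778). Without PF 4 it was 3.49, with an adjusted p of 0.00756. It also passed without EtOH 1 or EtOH 2, at 2.17 each, and with limma voom (2.45, adjusted p = 0.0248).

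The same libraries stood out in neutrophil markers. The sum of the 8 measured markers was 11.4 CPM in PF 4 and 2.87 to 3.94 CPM in the other PF libraries, and it was 10.9 and 11.3 CPM in EtOH 3 and 4 against 5.57 and 2.73 CPM in EtOH 1 and 2. Their part in the Mmp8 values was not tested.

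Mmp14, a membrane-bound MMP that cuts collagen and activates pro-Mmp2, was the abundant MMP that rose most evenly. It was at 25.4, 24.2, 30.8 and 29.8 CPM in PF and at 59.0, 51.2, 47.6 and 53.6 CPM in EtOH. The groups were clearly apart, and the rise was 1.92-fold (log2 0.94 ± 0.12, adjusted p = 2.29e-05). The gelatinase Mmp2, its substrate, was at 2.02 to 3.42 CPM in PF and 2.82 to 6.20 CPM in EtOH, with a log2 fold change of 0.76 ± 0.31 that just missed the threshold (adjusted p = 0.0562). It passed with DESeq2 (0.77) and without PF 4 (0.91), EtOH 3 (0.92) or EtOH 4 (0.88). The other gelatinase, Mmp9, stood at 0.0582 to 1.16 CPM in EtOH and 0.399 to 0.870 CPM in PF (log2 -0.15 ± 0.56, adjusted p = 0.850).

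For Mmp19 and Mmp11, called higher in EtOH, the groups overlapped. Mmp19, a secreted MMP that cleaves basement membrane proteins, was at 33.5, 51.4, 36.0 and 33.8 CPM in PF and at 44.7, 55.5, 52.0 and 45.7 CPM in EtOH. PF 2 was within the EtOH range. The log2 fold change was 0.36 ± 0.13 (adjusted p = 0.0330), and the call ended without PF 1, PF 3, PF 4, EtOH 2 or EtOH 3 (0.29 to 0.32). Mmp19 exons share 789 bases with Tmem198b on the opposite strand, and the unstranded count held 72.5% of the reads that the strand columns gave it, and reads in the shared bases cannot be told apart between the 2 genes, so its level is uncertain. Mmp11 (stromelysin-3) was at 0.428, 0.313, 0.299 and 0.435 CPM in PF and at 1.31, 1.16, 0.537 and 0.387 CPM in EtOH, with EtOH 4 inside the PF range. Its log2 fold change was 1.22 ± 0.43 (adjusted p = 0.0343), and the call ended without any 1 of the 4 PF libraries, EtOH 1 or EtOH 2 (0.93 to 1.30).

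Neither of the tested inhibitors was called in EtOH against PF. Timp2 was at 15.1, 11.0, 15.5 and 15.8 CPM in PF and at 13.6, 16.2, 15.2 and 12.8 CPM in EtOH, with a log2 fold change of 0.01 ± 0.13 (adjusted p = 0.966). Timp2 group means lay between 14.2 and 14.5 CPM in all 4 groups. Timp3, which binds to the matrix and also inhibits ADAMTS4 and ADAMTS5, was at 59.6, 28.9, 64.4 and 52.7 CPM in PF and at 62.7, 71.6, 69.6 and 70.5 CPM in EtOH. PF 2 was low and the groups overlapped (log2 0.41 ± 0.17, adjusted p = 0.0583). Timp3 passed under DESeq2 (0.42), with a block for the replicate number (0.45) and without PF 3 (0.54). Timp1, the inhibitor best known as a marker of liver fibrogenesis, was counted only 1 to 6 times in the PF libraries. In EtOH it had 34, 9, 5 and 0 counts, in EtOH+MBV 1, 4, 6 and 7, and in PF+MBV 1, 3, 3 and 1, too few for the test. Timp4 was counted at most 6 times in any library.

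**Figure D3:**
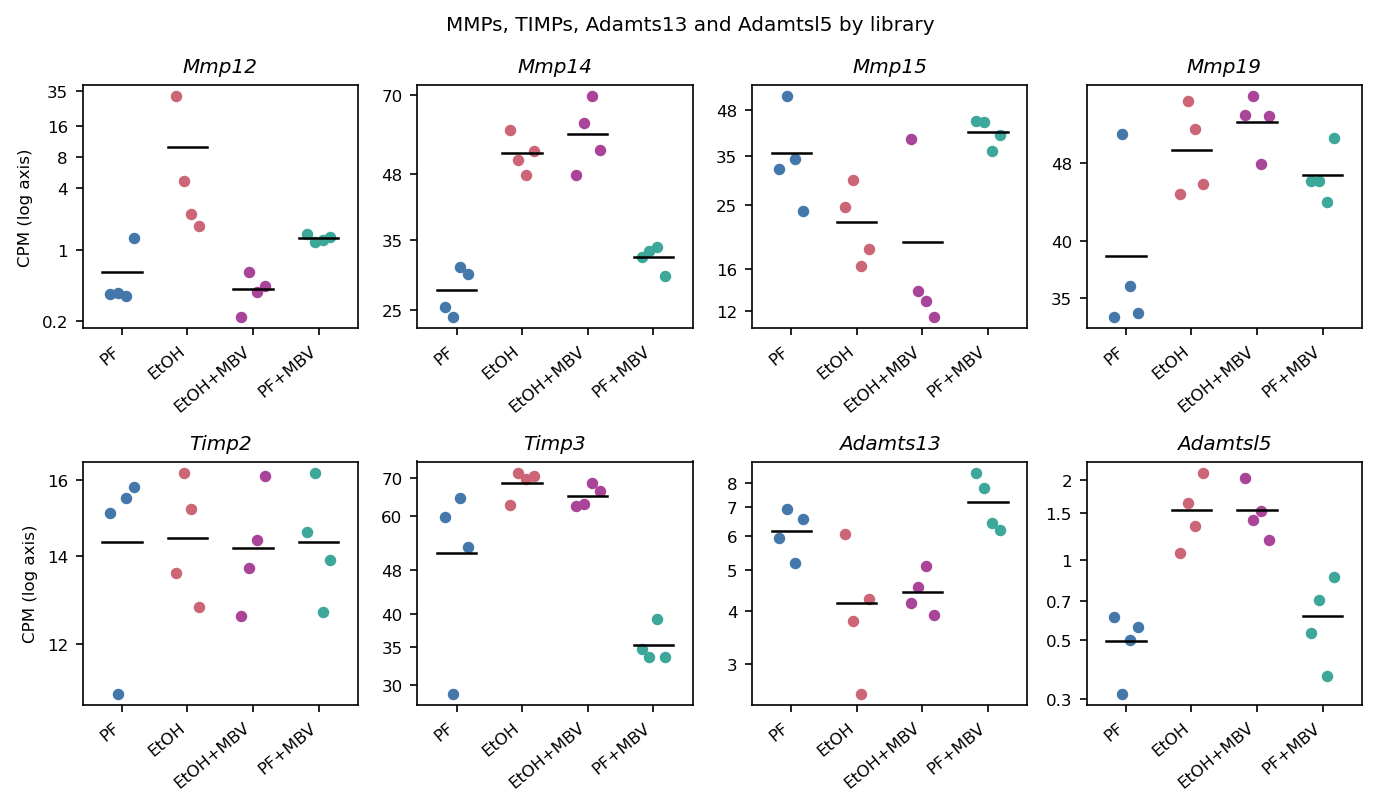
Level of 4 MMPs, Timp2, Timp3, Adamts13 and Adamtsl5 in CPM (log axis, its range set per gene), with 1 point per library and a bar at the group mean. Mmp14 and Adamtsl5 are higher in both ethanol groups, Timp2 is level across the 4 groups, and 1 EtOH+MBV library (39.3 CPM) stands above the others for Mmp15.

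MBV treatment on the ethanol diet lowered 3 members. In EtOH+MBV against EtOH, Adamts4, Adamts9 and Mmp12 fell and no member was called higher. The 3 are 10.0% of the 30 tested members, against 2.69% of all tested genes (1.24% higher and 1.45% lower). The median log2 fold change was -0.24 for the members and 0.01 for all genes. Adamts14 had a log2 fold change of -1.55 ± 0.53 and was not called (adjusted p = 0.109). It was called lower with DESeq2 (-1.55, adjusted p = 0.0407) and without EtOH 4 (-1.86, adjusted p = 0.0271). Adamts15 and Adamts1, proteoglycanases that ethanol had raised besides Adamts4 and Adamts9, were not called (adjusted p = 0.367 and 0.142). Adamts15 was at 3.67 to 8.17 CPM with MBVs and 7.41 to 10.4 CPM without (log2 -0.34 ± 0.21). Adamts1 was at 26.4 to 63.1 against 49.5 to 75.9 CPM (log2 -0.63 ± 0.24), and it was called lower without EtOH+MBV 4 (log2 -0.93, adjusted p = 0.0375).

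In EtOH+MBV 1 to 4, Mmp12 was at 0.219, 0.603, 0.382 and 0.440 CPM. All 4 were below the lowest EtOH library and in or below the range of PF. The fall was 24.6-fold (log2 -4.62 ± 0.86, adjusted p = 0.0201). Without EtOH 1 it was -2.80 on the log2 scale (adjusted p = 0.0217), with limma voom it was -2.82, and without EtOH+MBV 3 the call ended (-4.58, adjusted p = 0.0836). The 9 recruited monocyte and macrophage markers summed to 70.9 to 98.0 CPM in EtOH+MBV. Of the 8 tested, 0 were called lower or higher by edgeR (6 at an unadjusted p under 0.05) and 2 by DESeq2. The part of macrophage RNA in the fall of Mmp12 was not tested.

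Adamts9 was at 3.18, 4.49, 2.87 and 4.40 CPM in EtOH+MBV, all below the lowest EtOH library. It fell 3.21-fold (log2 -1.68 ± 0.32, adjusted p = 0.0208). The call remained without EtOH 1 (-1.47, adjusted p = 0.0435) and ended without EtOH 2 or EtOH+MBV 3 (-1.57 to -1.45). Adamts4 was at 1.97, 4.75, 3.38 and 4.65 CPM, again below every EtOH library and still above every PF library. It fell 2.29-fold (log2 -1.19 ± 0.30, adjusted p = 0.0468), and this call was at the threshold: it ended without EtOH 1, EtOH 2 or any 1 of the 4 EtOH+MBV libraries (-1.33 to -0.98, adjusted p 0.0606 to 0.13). When the 8 libraries of the comparison were fitted alone, none of the 3 passed (adjusted p = 0.24 for Adamts4 and 0.227 for the other two), at nearly the same log2 fold changes. In that fit edgeR called 0 of 12325 genes, with 1679 at an unadjusted p under 0.05.

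In pair-fed mice MBVs raised 1 member, Adamts6. In PF+MBV it was at 2.06, 1.68, 2.65 and 1.43 CPM, above every PF library, and the rise was 2.81-fold (log2 1.49 ± 0.35, adjusted p = 0.0384). This is 3.33% of the tested members, against 1.78% of all tested genes (0.752% higher and 1.03% lower), and the median log2 fold change was 0.19 for the members and 0.00 for all genes. The call ended when PF 1, PF 3, PF 4 or any 1 of the 4 PF+MBV libraries was left out (1.30 to 1.65, adjusted p 0.0567 to 0.14). Timp3 was at 34.7, 33.6, 39.3 and 33.6 CPM in PF+MBV, below 3 of the 4 PF libraries, with PF 2 lower still. Its log2 fold change was -0.54 ± 0.17 and not called (adjusted p = 0.106). It passed with DESeq2 (-0.55, adjusted p = 0.0475), with limma voom (-0.64, adjusted p = 0.00247) and without PF 2 (-0.74, adjusted p = 0.00064).

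Ethanol against pair-feeding under MBV treatment compares EtOH+MBV with PF+MBV and shares no library with EtOH against PF. Here 11 of the 30 tested members were called, 7 higher and 4 lower. That is 36.7% of the members, against 35.9% of all tested genes (19.2% higher and 16.7% lower), with medians of 0.23 and -0.01 on the log2 scale. The members called higher were Adamts1, Adamts4, Adamts15, Adamtsl5, Mmp8, Mmp14 and Timp3. Those called lower were Adamts7, Adamts13, Mmp15 and Mmp27.

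Of these, 7 were called in both ethanol comparisons and in the same direction, 50.0% of the 14 and 63.6% of the 11: Adamts1, Adamts4, Adamts13, Adamts15, Adamtsl5, Mmp14 and Mmp27. Of all 12901 tested genes, 19.9% were called in both in the same direction, against 23.3% of the 30 tested members, so the overlap was near the background. Adamts15 rose 5.33-fold with MBVs (log2 2.41 ± 0.24, adjusted p = 6.7e-06), from 1.18, 1.24, 1.30 and 1.32 CPM in PF+MBV to 3.67, 7.97, 7.26 and 8.17 CPM in EtOH+MBV. Mmp14 rose 1.80-fold (log2 0.85 ± 0.12, adjusted p = 9.23e-05), from 32.3, 33.2, 33.9 and 29.4 CPM to 47.6, 61.0, 69.5 and 53.8 CPM. For both genes the groups were well apart, and the interaction was not called (-0.44 ± 0.33, adjusted p = 0.444, for Adamts15 and -0.09 ± 0.17, adjusted p = 0.781, for Mmp14).

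Adamtsl5 rose 2.50-fold (log2 1.32 ± 0.32, adjusted p = 0.00501), from 0.529, 0.703, 0.364 and 0.859 CPM to 2.03, 1.41, 1.53 and 1.19 CPM. Adamts1 rose 2.56-fold (log2 1.36 ± 0.25, adjusted p = 0.000653), from 17.1, 15.0, 14.5 and 16.0 CPM to 26.4, 37.4, 33.6 and 63.1 CPM. Adamts4 rose 4.72-fold (log2 2.24 ± 0.35, adjusted p = 0.000216), from 0.647, 0.595, 1.15 and 0.688 CPM in PF+MBV. In all 3 the lowest EtOH+MBV library was above the highest PF+MBV library. Adamts13 was lower, at 4.17, 4.55, 5.09 and 3.90 CPM against 8.46, 7.79, 6.45 and 6.19 CPM (log2 -0.71 ± 0.21, adjusted p = 0.0157), and the call ended without EtOH+MBV 4 or PF+MBV 1 (-0.65 to -0.62). Mmp27 was at 0.165, 0.335, 0.255 and 0.188 CPM against 0.588, 0.757, 0.625 and 0.630 CPM (log2 -1.45 ± 0.51, adjusted p = 0.0363). Its groups did not overlap, but 7 of the 8 leave-outs, all except that of EtOH+MBV 2, ended the call (-1.50 to -1.31).

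**Figure D4:**
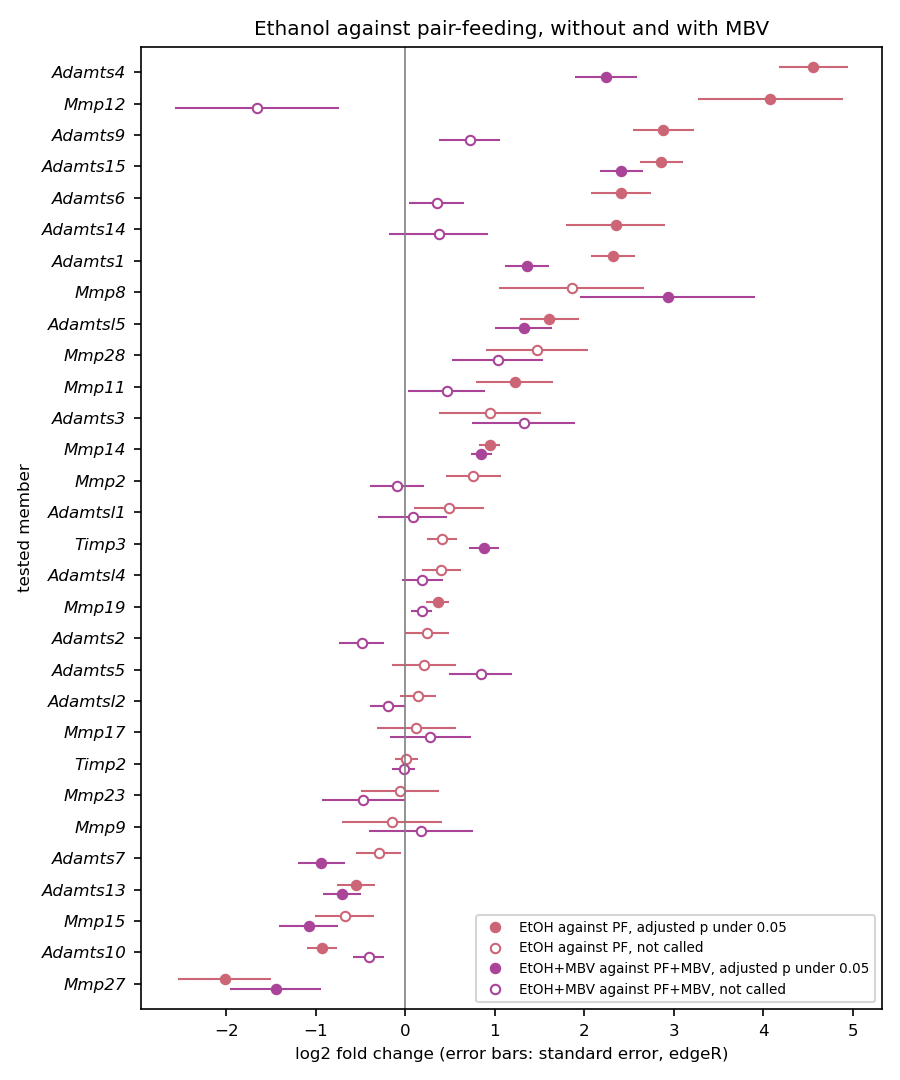
Log2 fold change of the 30 tested members for ethanol against pair-feeding, without MBVs (EtOH against PF) and with MBVs (EtOH+MBV against PF+MBV), with standard errors and filled points for an adjusted p under 0.05. Adamts15 (2.86 and 2.41) and Mmp14 (0.94 and 0.85) are called in both, and Mmp12 goes from 4.08 to a value below 0 that was not called.

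By edgeR on all 16 libraries, the remaining 4 calls were made only under MBVs, which by itself does not show that the ethanol effect differed. The interaction was 0.47 ± 0.24 for Timp3, -0.64 ± 0.36 for Adamts7, -0.40 ± 0.47 for Mmp15 and 1.08 ± 1.29 for Mmp8, with adjusted p of 0.245 to 0.656. Timp3 was at 62.4, 62.9, 68.5 and 66.3 CPM in EtOH+MBV, all above PF+MBV, a 1.84-fold difference (log2 0.88 ± 0.17, adjusted p = 0.000957). Between EtOH+MBV and EtOH it differed by -0.08 ± 0.17 on the log2 scale (adjusted p = 0.836). Adamts7, which cleaves cartilage oligomeric matrix protein, was at 2.63, 3.62, 2.04 and 2.07 CPM against 6.11, 5.19, 3.75 and 4.87 CPM, with no overlap (log2 -0.94 ± 0.26, adjusted p = 0.00981). In EtOH and PF it ranged from 2.18 to 5.58 CPM. Mmp15 was at 39.3, 13.8, 12.9 and 11.5 CPM in EtOH+MBV and at 44.5, 44.1, 36.1 and 40.5 CPM in PF+MBV. EtOH+MBV 1 lay inside the PF+MBV range while the other 3 were far below it. The log2 fold change was -1.08 ± 0.33 (adjusted p = 0.0187), it was -1.70 without EtOH+MBV 1 (adjusted p = 5.87e-05), and the call ended without EtOH+MBV 2, 3 or 4 (-0.95 to -0.90).

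Mmp15 without MBVs was at 31.9, 52.8, 34.3 and 23.9 CPM in PF and at 24.5, 29.6, 16.4 and 18.4 CPM in EtOH (log2 -0.68 ± 0.33, adjusted p = 0.112). There it passed with limma voom (-0.63, adjusted p = 0.0468). Mmp8 was at 0.384, 0.670, 1.59 and 0.942 CPM in EtOH+MBV and at 0.0588, 0.270, 0.104 and 0 CPM in PF+MBV, with no overlap (log2 2.93 ± 0.98, adjusted p = 0.0286). The PF+MBV mean was only 2.00 counts, so the 7.64-fold difference is imprecise: it was 3.83 on the log2 scale without PF+MBV 2, and the call ended without EtOH+MBV 3, EtOH+MBV 4, PF+MBV 1, PF+MBV 3 or PF+MBV 4 (2.51 to 2.92). Neutrophil markers summed to 2.85, 9.78, 9.74 and 6.85 CPM in EtOH+MBV 1 to 4 and to 2.86 to 3.78 CPM in PF+MBV, and their part in this difference was not tested.

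The interaction tested whether MBVs changed expression differently on the 2 diets. It was called for 4 members, Adamts4, Adamts6, Adamts9 and Mmp12, all more negative on ethanol. These are 13.3% of the tested members, against 4.11% of all tested genes (2.02% higher and 2.09% lower), with a median of -0.37 for the members and 0.00 for all genes. Mmp12 had the largest of the 4 values, -5.74 ± 1.21 on the log2 scale (adjusted p = 0.0209). On the pair-fed side Mmp12 was at 1.41, 1.19, 1.25 and 1.32 CPM in PF+MBV, above 3 of the 4 PF libraries and near PF 4 (1.30 CPM), while on ethanol it fell with MBVs. The value was -3.92 without EtOH 1 (adjusted p = 0.00891), -6.41 without PF 4 and -4.29 with limma voom. Between EtOH+MBV and PF+MBV Mmp12 was not called (log2 -1.66 ± 0.92, adjusted p = 0.170), though these groups did not overlap. In that comparison it was called lower with limma voom (-1.50, adjusted p = 0.045) and with the 8 libraries fitted alone (-1.65, adjusted p = 0.00223).

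The other interactions were -2.32 ± 0.53 for Adamts4 (adjusted p = 0.0272), -2.16 ± 0.48 for Adamts9 (adjusted p = 0.0239) and -2.06 ± 0.46 for Adamts6 (adjusted p = 0.0245). They hold the pair-fed side too: with MBVs Adamts4 differed from PF by 1.13 ± 0.44 (adjusted p = 0.195) and Adamts9 by 0.48 ± 0.36 (adjusted p = 0.548). Neither was called, and Adamts4 had only 2, 6, 8 and 8 counts in PF and 11, 11, 22 and 12 in PF+MBV. On ethanol, Adamts6 was at 1.54, 3.08, 2.48 and 2.95 CPM with MBVs, overlapping EtOH, and in pair-fed mice MBVs raised it. Without EtOH 1 the interactions of Adamts4, Adamts9 and Adamts6 were -2.19, -1.95 and -1.76, and each passed. Each call ended under other leave-outs. For Adamts4 these were PF 1, PF 3, EtOH 2, EtOH+MBV 3, PF+MBV 3 and PF+MBV 4 (-2.40 to -2.03, adjusted p 0.0512 to 0.0648). For Adamts9 they were PF 1, PF 3, EtOH+MBV 3, PF+MBV 1 and PF+MBV 2 (-2.17 to -1.98), and for Adamts6 PF 1, PF 3, EtOH+MBV 3, PF+MBV 1 and PF+MBV 3 (-2.04 to -1.87).

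Genes that activate, inhibit or share substrates with these enzymes were followed in 6 lists, with 44 genes tested. In EtOH against PF 25 of them were called, beside 39.8% of all tested genes (20.4% higher and 19.5% lower). In the plasminogen system, whose protease plasmin activates pro-MMPs, 4 of 8 rose and 2 fell. The urokinase receptor Plaur rose 9.43-fold and the activator Plat 4.68-fold, while the activator urokinase (Plau) fell 3.86-fold. Of 7 AP-1 factors 5 had enough counts to be tested, all except Fosb and Fosl1. All 5 rose, with Fos 10.4-fold, Junb 3.87-fold, Jund 3.39-fold, Fosl2 3.23-fold and Jun 2.85-fold higher.

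Among other inhibitors and activators, 4 of 8 rose and 1 fell in EtOH. Those that rose were the MMP inducer Bsg and the convertases Furin, Pcsk5 and Pcsk6, and the protease inhibitor Tfpi2 was 2.32-fold lower. The Furin call ended without PF 4 or EtOH 2 (log2 0.23 to 0.30). Of 13 tested substrates and ligands 5 rose, among them the basement membrane collagens Col4a1 (2.86-fold) and Col4a2 (2.25-fold) and the fibrillar collagen Col1a1 (3.06-fold), and none was called lower. Col1a1 was at 4.46, 7.39, 8.28 and 12.1 CPM in PF and at 52.8, 19.4, 14.5 and 11.4 CPM in EtOH, with EtOH 4 inside the PF range. Without EtOH 1 its log2 fold change went from 1.61 to 0.91 (adjusted p = 0.0294), and the 5 rises became 3, with Fbn1 (0.77) and Dcn (0.23) no longer called. There were also 3 with the 8 libraries fitted alone. Of 9 tested ADAM proteases, which shed membrane proteins, Adam8 and Adam15 rose and Adam23 fell. Adam8 was at 6.73 CPM in EtOH 1, 0.873 to 1.41 CPM in EtOH 2 to 4 and up to 1.12 CPM in PF, and its call ended without EtOH 1 (log2 2.46 with it, 1.27 without, adjusted p = 0.0601). The 1 tested astacin protease, Bmp1, which removes the carboxy-terminal propeptide of procollagens, fell 1.33-fold, a call that ended without PF 3 (log2 -0.38).

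With MBVs on ethanol, 2 of the 44 were called with edgeR (17 at an unadjusted p under 0.05), 11 with DESeq2 and 1 with limma voom, beside 2.69% of all genes with edgeR. Fos was 3.00-fold lower (log2 -1.59 ± 0.39, adjusted p = 0.0412), at 3.73, 9.24, 5.35 and 6.66 CPM against 28.5, 14.2, 17.0 and 15.0 CPM, and Tfpi2 was 1.49-fold higher (adjusted p = 0.0382). Both calls ended without EtOH 1, EtOH 2, EtOH+MBV 1, EtOH+MBV 3 or EtOH+MBV 4 (log2 -1.70 to -1.30 for Fos and 0.50 to 0.58 for Tfpi2). Both also ended with limma voom, with the replicate block and with the 8 libraries fitted alone, so the 1 gene called with limma voom was neither of them. In pair-fed mice MBVs gave 0 calls among the 44 with edgeR (7 at an unadjusted p under 0.05), 2 with DESeq2 and 7 with limma voom. Between EtOH+MBV and PF+MBV 21 were called, beside 35.9% of all genes, with Plaur 3.99-fold higher and the membrane-anchored MMP inhibitor Reck 1.94-fold lower. The interaction was called for 3 of the 44 with edgeR, beside 4.11% of all genes, and for 7 with DESeq2 and 6 with limma voom. With edgeR these were Fos (log2 -2.42), Col3a1 (-2.44) and Col4a1 (-0.83). Fos lost the call without PF 1, PF 4, EtOH+MBV 3, PF+MBV 1 or PF+MBV 3 (-2.40 to -2.06). Col3a1 and Col4a1 each lost it in 10 of the 16 leave-outs, among them those of PF 1, PF 3 and any 1 PF+MBV library (-2.54 to -2.30 and -0.86 to -0.67).

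The 21 members without a test were rare in these livers. Mmp1a, Mmp1b and Adamts20 had no count in any of the 16 libraries, which at 3 counts allows up to 0.145 to 0.201 CPM per library. In 13 others no library reached 10 counts: Adamts8, Adamts16, Adamts17, Adamts18, Adamts19, Adamtsl3, Mmp3, Mmp10, Mmp16, Mmp20, Mmp21, Mmp25 and Timp4. The other 5 reached 10 counts in at least 1 library. Besides Timp1 these were Adamts12, with 37 counts in EtOH 1 and 7 or fewer in each PF, EtOH+MBV and PF+MBV library, the collagenase Mmp13 with 15 in EtOH 1 and 14 in PF+MBV 4, the matrilysin Mmp7 with 10 in PF 4, and the membrane-type Mmp24. Mmp24 had 0 counts in all PF libraries and 15, 7, 2 and 7 in EtOH, but it overlaps BC029722 on the opposite strand and only 3.25% of the reads that the strand columns gave it entered the unstranded count, so its counts say little of its level. Summed over the strand columns it was at 4.78 to 6.83 CPM in PF and 4.30 to 9.53 CPM in EtOH, with the groups overlapping. Reads in the bases it shares with BC029722 cannot be told apart between the 2 genes, so this sum does not give its level either.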

How the data were processed

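Whole-liver RNA was measured in 16 libraries, 4 in each of 4 groups taken from the sample labels. The authors deposited read counts per gene symbol, not normalized, in 3 count columns (unstranded and both strands). Trimming with Trimmomatic and mapping with STAR to mm10 are named in the submitters' processing notes, with the versions, settings and annotation not given in the sources used here. For the tests the unstranded counts served, in which reads overlapping 2 genes are ambiguous and unassigned. The 4 entries that name no gene stayed out of library sizes: unmapped reads were 11.6% to 19.9%, multimapping 4.57% to 7.58%, without feature 9.40% to 10.9% and ambiguous 1.35% to 1.69%. No 2 libraries of a group agreed within sampling noise.

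Genes were kept by filterByExpr with a minimum count of 10 (12901 genes) and scaled by TMM. The quasi-likelihood fit of edgeR 4.0.16 (R 4.3.3) took all 16 libraries with a mean for each group and no block, and 5 contrasts were tested, with Benjamini-Hochberg adjustment across the 12901 genes. The script was tested on simulated data. CPM was computed from TMM-scaled library sizes, and exon lengths and overlaps came from GENCODE M21 (GRCm38). Alternatives were RLE factors, DESeq2 1.42.0, limma 3.58.1 voom, no filter, a replicate block, 8 libraries alone, each library left out and, chosen after seeing the data, the sum of the strand columns.

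The members, lists and naming rule were chosen with earlier results of these data known. Named are all members called in any contrast, with every library's value where the higher group averaged 0.5 CPM, those whose call depends on 1 library, Timp1 to Timp4, Mmp2, Mmp9, Mmp12, Mmp14 and Adamts13, and up to 4 genes per list.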

Additional observations from a re-analysis of the deposited data

Results flagged for a closer look

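In 11 of 120 groups of 4 libraries, 1 library lay far from the other 3 by Dixon's criterion at 95%, where chance gives about 1 in 20. Of these, 3 were EtOH 1: Mmp12 at 31.4 CPM (others 1.68 to 4.71), Adamts14 at 23.9 CPM (others 2.39 to 5.12) and Adamts6 at 5.71 CPM (others 2.69 to 3.2). Others were PF 4, with Mmp12 at 1.3 CPM (others 0.349 to 0.376) and Mmp8 at 1.18 CPM (others 0.0626 to 0.183), and PF 2, with Mmp19 at 51.4 CPM and Timp2 at 11 CPM. EtOH+MBV 1 was high for Mmp15 at 39.3 CPM (others 11.5 to 13.8) and low for Mmp23 at 0.548 CPM. Adamtsl1 was low in EtOH+MBV 3, at 0.446 CPM, and Adamts4 high in PF+MBV 3, at 1.15 CPM (others 0.595 to 0.688).

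The effect of MBVs differed between the diets by the interaction test for 4 members: Mmp12 (-5.74 on the log2 scale), Adamts4 (-2.32), Adamts9 (-2.16) and Adamts6 (-2.06).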

How the results depend on the processing

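The 33 calls of members were recomputed in 520 settings in all: 441 kept the call, 79 lost it and 0 changed direction, and 19 calls were kept in every setting run for them. The number of members called was within 1.5 times of the reported one except as follows. In EtOH+MBV against EtOH, 3 became 0 with edgeR on the 8 libraries alone (6 members at an unadjusted p under 0.05). Fits of 8 libraries alone gave 10 in EtOH against PF, 14 in EtOH+MBV against PF+MBV and 1 in PF+MBV against PF, each within that range. In PF+MBV against PF, 1 became 2 with DESeq2, 3 with limma voom and 0 with edgeR and the replicate block (4 at an unadjusted p under 0.05). In EtOH+MBV against PF+MBV, 11 became 17 with limma voom. Leaving out 1 library gave 11 to 14 calls in EtOH against PF, 0 to 4 in EtOH+MBV against EtOH (0 without EtOH+MBV 3, 1 without EtOH 2), 0 to 3 in PF+MBV against PF (3 without PF 2, 0 without any 1 of the other 7), 7 to 13 in EtOH+MBV against PF+MBV (7 without EtOH+MBV 4) and 1 to 5 for the interaction (1 without PF 1, PF 3 or EtOH+MBV 3, 2 without PF+MBV 1 or PF+MBV 3). The cause was not tested.

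Over all genes the calls moved too: 347 in EtOH+MBV against EtOH became 905 with DESeq2 and 143 with limma voom, 230 in PF+MBV against PF became 665 and 2494, and 530 for the interaction became 1113 and 1410. Counts of genes called in the other lists were within 1.5 times in 1062 of 1230 settings.

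The groups share replicate numbers, but the numbers did not pair the libraries: same-numbered libraries correlated at -0.09 to 0.16 in their deviations from the group means, above 0.1 in 1 of 16 pairs, and 3 of 16 correlated best with their own number. With the replicate block 15, 2, 0, 11 and 4 members were called in the 5 contrasts, in the order of the report, and the Adamts4 and Adamts6 calls for MBVs ended (adjusted p = 0.0658 and 0.0653).

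Depth limits the members under about 1 CPM, where a PF or EtOH mean rests on fewer than 20 counts.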

Other observations

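With no filter on low counts, 3 members with low counts were called higher in EtOH than in PF: Adamts12 (log2 2.50 ± 0.59, adjusted p = 0.00376), the stromelysin Mmp3 (adjusted p = 0.0481) and Mmp24 (adjusted p = 0.0109). Mmp3 had no count in any PF library and 10 in the EtOH libraries together. For Mmp24 these counts hold only 3.25% of the reads of its strand columns. In those columns EtOH and PF overlapped, but they cannot tell its reads from those of BC029722 in shared bases. Under the same setting Mmp16 was higher in EtOH+MBV than in PF+MBV (adjusted p = 0.025), with 16 counts against 0. Mmp28 was at 0.183 to 0.376 CPM in PF and 0.403 to 1.40 CPM in EtOH, with no overlap, and missed the threshold (log2 1.47 ± 0.57, adjusted p = 0.0506). It passed with RLE factors (adjusted p = 0.0498), with DESeq2 (0.0426) and without EtOH 2 (0.0442) or EtOH 3 (0.0374). Without PF 2, the interaction was called for Timp3 (log2 0.66, adjusted p = 0.00966).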
